A study of Mus musculus with 12 samples.

Results

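The 8 transcripts described here, Tmem163, Nrsn2, Sfrp1, Matk, Kcnab3, Steap2, Cygb and Klhdc8a, were over 5-fold lower in 2 of 12 motor neuron libraries, the same 2 libraries that had almost no RNA of the interneuron markers Slc6a5 and Slc17a6. They were chosen from the genes that met this measure, which other genes met too. Each was over 5-fold lower in Q331K/Q331K replicate 1 and in Q331K/+ replicate 1 than the mean of the other 10 libraries. They make up 8 of 25965 entries of the count table and 8 of the 16338 genes with enough counts to test. The libraries are polyA RNA-seq of lumbar lower motor neurons collected by laser microdissection, and every mouse was C57BL/6 and 5 months old. They comprise 4 libraries from mice homozygous for the Q331K substitution knocked into the gene for the RNA-binding protein TDP-43 (Q331K/Q331K), 4 from heterozygotes (Q331K/+) and 4 from wild-type mice (+/+). The knock-in is in the mouse's own gene, so every cell type of the mutants carries it. The labels do not say that each library is a separate animal, so p-values measure only the spread between these libraries.

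Interneurons are local neurons that lie among and contact motor neurons in the ventral horn. Slc6a5 is the plasma membrane glycine transporter (GlyT2) of glycinergic inhibitory neurons, and Slc17a6 is the vesicular glutamate transporter (VGLUT2) of excitatory neurons. Motor neurons release acetylcholine and are marked by genes such as Chat, the enzyme that makes it. A laser cut around a motor neuron can take in pieces of neighbouring cells, and a bulk library sums all RNA in the cut.

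In the count table's GRCm38 coordinates, Klhdc8a (ENSMUSG00000042115) lies on the plus strand at chr1:132298626-132307357 and Tmem163 (ENSMUSG00000026347) on the minus strand at chr1:127486546-127678096. Nrsn2 (ENSMUSG00000059361) lies on the minus strand at chr2:152368755-152376638, and Steap2 (ENSMUSG00000015653) on the minus strand at chr5:5664831-5694578. Sfrp1 (ENSMUSG00000031548) lies on the plus strand at chr8:23411502-23449632, and Matk (ENSMUSG00000004933) on the plus strand at chr10:81252935-81263365. Kcnab3 (ENSMUSG00000018470) is on the plus strand at chr11:69326258-69333042 and Cygb (ENSMUSG00000020810) on the minus strand at chr11:116645595-116654313. The identifiers were matched by symbol to GENCODE M21. Its start and end are those of the count table for 6 of the 8 members; its Tmem163 begins further upstream, ending at 127679548, and its Steap2 starts at 5664829.

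Of the members, 5 of 8 matched the RefSeq promoter table (GRCm38.p6). The promoters of 4 members whose RefSeq start lay within 50 bases of the start in the count table are shown because these genes were low together. Each runs from 250 bases before the start to 50 after it, 5′ to 3′ on the gene's strand, and capitals mark matches on either strand to the GC box motif GGGCGG or to the TATA box motif TATAAA, so a match on the opposite strand appears as the reverse complement.
Klhdc8a, plus strand, chr1:132298376-132298675: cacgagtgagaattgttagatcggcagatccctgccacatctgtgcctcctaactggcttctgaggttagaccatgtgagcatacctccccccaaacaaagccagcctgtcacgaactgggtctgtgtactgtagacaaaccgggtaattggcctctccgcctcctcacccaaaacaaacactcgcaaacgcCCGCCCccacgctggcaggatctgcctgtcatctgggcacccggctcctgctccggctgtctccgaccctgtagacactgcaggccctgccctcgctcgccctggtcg
Nrsn2, minus strand, chr2:152376556-152376855: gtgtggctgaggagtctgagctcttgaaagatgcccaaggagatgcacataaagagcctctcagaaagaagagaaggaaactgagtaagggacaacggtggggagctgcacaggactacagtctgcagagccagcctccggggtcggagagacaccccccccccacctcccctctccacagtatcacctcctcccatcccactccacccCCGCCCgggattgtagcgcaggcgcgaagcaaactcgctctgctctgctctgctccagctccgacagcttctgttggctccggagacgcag
Steap2, minus strand, chr5:5694519-5694818: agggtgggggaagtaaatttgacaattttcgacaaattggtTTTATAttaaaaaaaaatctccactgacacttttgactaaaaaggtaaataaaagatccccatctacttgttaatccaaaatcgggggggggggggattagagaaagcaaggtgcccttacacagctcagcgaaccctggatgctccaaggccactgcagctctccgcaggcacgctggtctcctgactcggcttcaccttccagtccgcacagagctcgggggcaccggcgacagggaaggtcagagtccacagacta
Matk, plus strand, chr10:81252685-81252984: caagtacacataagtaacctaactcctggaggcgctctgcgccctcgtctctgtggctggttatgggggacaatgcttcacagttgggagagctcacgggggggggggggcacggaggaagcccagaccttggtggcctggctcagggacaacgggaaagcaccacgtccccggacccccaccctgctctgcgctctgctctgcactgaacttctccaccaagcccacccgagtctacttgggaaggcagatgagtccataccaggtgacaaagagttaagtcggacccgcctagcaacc
The Klhdc8a and Nrsn2 promoters each held 1 GC box, beginning at positions -58 and -41 from the start, and the GC box was present in 35.7% of 32851 RefSeq promoters of this length. The Steap2 window held 1 TATAAA match at position -209, a motif found in 13.6% of all promoters. Neither CAGCTG, present in 16.3% of promoters, nor TGACG, present in 20.8%, occurred in these 4 windows on either strand, and the Matk window held none of the 4 motifs. No motif was shared by all 4 windows.

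The 12 libraries held 60886825 to 83504446 counts each, and the 2 low libraries lay inside that range with 73369776 counts in Q331K/Q331K replicate 1 and 75409460 in Q331K/+ replicate 1. They had 16228 and 16312 genes detected, against 16633 to 17002 in the other 10. Levels below are CPM, counts scaled to the size of each library, after TMM adjustment. In all 18 same-genotype pairs the libraries differed beyond read-sampling noise, so no library is a duplicate deposit of another of its genotype. Pairs across genotypes were not compared in this way. The differences do not show that the libraries are separate animals.

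**Figure D1:**
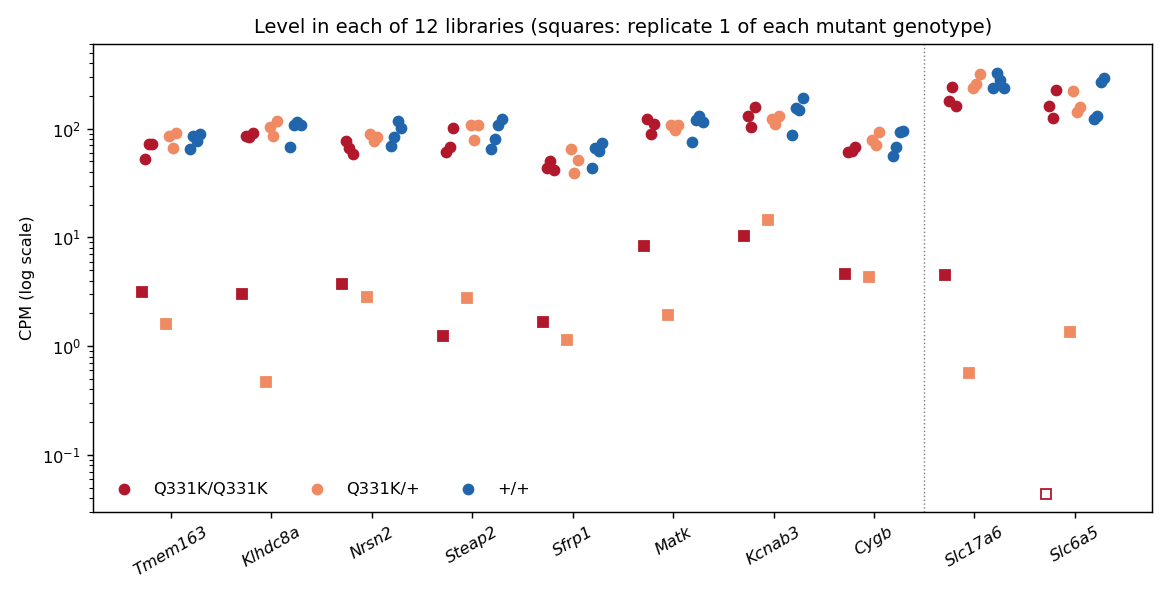
Level of each member and of both markers in each of the 12 libraries, in CPM on a log axis, grouped as Q331K/Q331K, Q331K/+ and +/+. Squares are replicate 1 of each mutant genotype and an open symbol marks 0 counts, drawn at the level of 3 counts. In every panel both squares lie below all 10 circles.

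Tmem163 is a zinc-binding membrane protein of synaptic vesicles. It had 3.16, 52.8, 71.6 and 71.5 CPM in Q331K/Q331K replicates 1 to 4, 1.61, 84.8, 65.7 and 91.6 CPM in Q331K/+ and 65.1, 85.4, 77.5 and 88.9 CPM in +/+. Nrsn2, neurensin 2, is a membrane protein of small vesicles in neurons. It had 3.76, 77.4, 65.8 and 58.3 CPM in Q331K/Q331K, 2.80, 88.3, 77.3 and 83.6 CPM in Q331K/+ and 69.1, 84.5, 118 and 102 CPM in +/+. In both genes replicate 1 of each mutant genotype was far below every other library. Of the remaining mutant libraries, Q331K/Q331K replicate 2 lay below the wild-type range of Tmem163 and Q331K/+ replicate 4 above it. Q331K/Q331K replicates 3 and 4 lay below the wild-type range of Nrsn2, and the others lay inside these ranges.

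Sfrp1 is a secreted protein that binds Wnt ligands and antagonises their signalling. Its level was 1.68, 43.2, 50.2 and 41.7 CPM in Q331K/Q331K, 1.14, 64.5, 39.4 and 51.4 CPM in Q331K/+ and 43.5, 66.8, 62.0 and 74.2 CPM in +/+. Matk, the Csk-homologous kinase, phosphorylates the inhibitory tyrosine of Src family kinases. Its level was 8.35, 123, 88.7 and 109 CPM in Q331K/Q331K, 1.93, 108.5, 97.4 and 107 CPM in Q331K/+ and 75.8, 119, 131 and 115 CPM in +/+. Kcnab3 is an accessory beta subunit of Kv1 voltage-gated potassium channels. Its level was 10.4, 131, 104 and 157 CPM in Q331K/Q331K, 14.4, 124, 109.6 and 131 CPM in Q331K/+ and 87.7, 153, 149.8 and 189.7 CPM in +/+, so it kept more of its level than any other member in Q331K/+ replicate 1.

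Steap2 is a metalloreductase that reduces iron and copper for uptake. It was measured at 1.25, 60.8, 68.4 and 102 CPM in Q331K/Q331K, 2.75, 108, 78.1 and 109 CPM in Q331K/+ and 65.4, 79.9, 108 and 123 CPM in +/+. Cygb, cytoglobin, is an intracellular oxygen-binding globin. It was measured at 4.57, 61.4, 62.9 and 68.3 CPM in Q331K/Q331K, 4.35, 79.4, 71.3 and 93.0 CPM in Q331K/+ and 55.8, 67.3, 93.6 and 94.2 CPM in +/+. Klhdc8a encodes a kelch domain protein. It was measured at 3.05, 85.8, 83.3 and 91.2 CPM in Q331K/Q331K, 0.465, 103, 84.9 and 117 CPM in Q331K/+ and 67.6, 107, 116 and 108 CPM in +/+, with the largest fold among the 8 in Q331K/+ replicate 1 (207-fold below the mean of the other 10).

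Slc6a5 was measured at 0, 160.2, 125 and 227 CPM in Q331K/Q331K, 1.35, 219.8, 143 and 159.7 CPM in Q331K/+ and 123, 130.3, 267 and 293 CPM in +/+. Slc17a6 was measured at 4.53, 179.5, 241 and 159.8 CPM in Q331K/Q331K, 0.563, 234.5, 258 and 316 CPM in Q331K/+ and 235, 323, 282 and 236 CPM in +/+. Both markers were low in the same 2 libraries as the members. In bulk libraries, fewer cells of a type and less RNA per cell cannot be told apart.

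The choice of members used these differences, so they are given without a test. All 8 members lay below each of the other 10 libraries in both, as did 10.6% of all genes tested. Over all genes, 5.53% were over 5-fold lower in both libraries. The share was 1.02% of the 9200 genes that averaged at least 10 CPM in the other 10, and 0.586% of the 3923 genes at or above the lowest member mean, where 23 genes met the rule, the 8 members and both markers among them. Just inside the fold limit among genes of at least 10 CPM were Syt12 at 5.19-fold and 6330527O06Rik at 5.18-fold, and just outside it were Rab15 at 4.93-fold and Gm13889 at 4.91-fold.

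**Figure D2:**
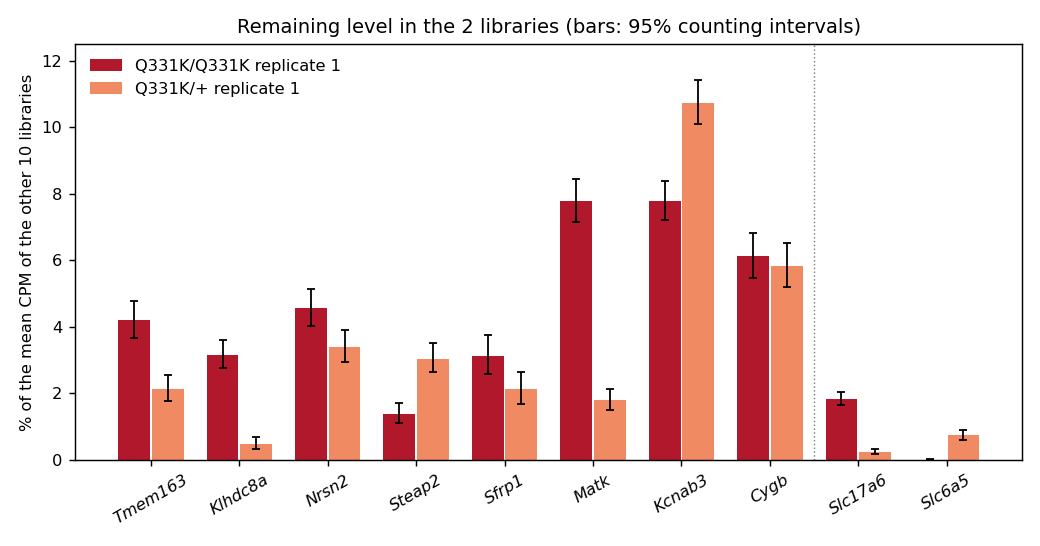
Level left in Q331K/Q331K replicate 1 and Q331K/+ replicate 1, as a percent of the mean CPM of the other 10 libraries, for the 8 members and both markers. Error bars are 95% Poisson intervals on the counts of each library. Kcnab3 kept the most in Q331K/+ replicate 1, at 10.7%, and Klhdc8a the least of the members there, at 0.482%.

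The members were not reduced to a common level. Klhdc8a stood at 3.16% of the other libraries' mean in Q331K/Q331K replicate 1 (95% counting interval 2.75 to 3.62%, 210 counts) and at 0.482% in Q331K/+ replicate 1 (0.332 to 0.677%, 33 counts). Matk stood at 7.77% (7.15 to 8.43%) and 1.79% (1.51 to 2.12%) in the same order of libraries. These intervals cover counting error only, since the reads carry no molecular identifiers. Of the 8 members, 6 were higher in Q331K/Q331K replicate 1 and 2, Steap2 and Kcnab3, were lower there. Steap2 stood at 1.38% (1.11 to 1.71%) in Q331K/Q331K replicate 1 and 3.04% (2.63 to 3.50%) in Q331K/+ replicate 1, and Kcnab3 at 7.78% (7.22 to 8.37%) and 10.7% (10.1 to 11.4%). The counting intervals of Cygb, 5.46 to 6.83% and 5.19 to 6.51%, overlapped, as did those of Sfrp1, 2.59 to 3.76% and 1.69 to 2.64%.

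The markers differed between the 2 libraries in opposite directions. Slc17a6 stood at 1.84% in Q331K/Q331K replicate 1 (312 counts) and 0.229% in Q331K/+ replicate 1 (40 counts). Slc6a5 had 0 counts in Q331K/Q331K replicate 1, at least 4247-fold lower than the mean of the other 10 when set at a floor of 3 counts in that library, and 96 counts in Q331K/+ replicate 1, or 0.732%. Steap2 and Kcnab3 thus followed the order of Slc6a5 across these 2 libraries and the other 6 members the order of Slc17a6. Among those 6, the counting intervals of Cygb and of Sfrp1 overlapped between the libraries. With 1 library of each kind this order is a description only.

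Per kilobase of annotated exon (GENCODE M21, GRCm38), the members' levels in the other 10 libraries ran from Nrsn2, at a mean of 56.7 CPM per kb, through Kcnab3 at 46.7, Cygb at 32.05, Matk at 23.4, Klhdc8a at 22.6, Tmem163 at 17.6 and Sfrp1 at 12.3, to Steap2 at 7.44 CPM per kb. Neighbours in this order overlapped in their ranges over the 10 libraries. Slc17a6 averaged 45.7 and Slc6a5 25.7 CPM per kb on the same scale, inside the members' range. Table entries on the opposite strand overlap 3 members: Gm14164 overlaps Nrsn2, Gm16040 overlaps Kcnab3 and Gm11744 overlaps Cygb. Their counts came to 14.0%, 7.43% and 14.7% of the counts of Nrsn2, Kcnab3 and Cygb in the other 10 libraries, and since no use of strand is stated, reads of each pair cannot be told apart.

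Cell type markers moved with the members in the same 2 libraries. The 16 genes listed as inhibitory interneuron markers summed to 450.6 CPM in Q331K/Q331K replicate 1 and 346.5 CPM in Q331K/+ replicate 1. Their range in the other 10 was 1192 to 2060 CPM. Of these 16 genes, 11 were over 5-fold lower in both, against 5.53% of all genes tested. Gad2, Lhx5 and Sst were at 0 in both, and Calb2, at 428 and 330.5 CPM, made up most of what was left. Without Calb2 the other 15 summed to 22.57 and 16.03 CPM, against 527.3 to 1124 CPM. Which cells of this tissue made the RNA of each listed gene was not tested. The 13 excitatory markers summed to 203 and 117.5 CPM, against 225.5 to 393 CPM. Of 10 tested genes, 6 were over 5-fold lower in both, against the same 5.53%. Slc17a6 set the direction of that sum: without it the other 12 summed to 198.6 and 117.0 CPM, against 57.1 to 96.2 CPM. Cck, at 92.6 and 87.5 CPM against 26.9 to 74.6 CPM, and Nts, at 105 and 29.0 CPM against 0.0599 to 9.22 CPM, both neuropeptides, lay above all 10 other libraries. The 12 motor neuron markers in the table moved the other way, with sums of 13910 and 13360 CPM against 4831 to 8984 CPM. None was over 5-fold lower, and 10 lay above all other libraries in both. The share of all genes above all other libraries was not counted. Chat had 329 and 353 CPM in Q331K/Q331K replicate 1 and Q331K/+ replicate 1, against 63.5 to 241 CPM.

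Markers of other cells did not share 1 direction. Astrocyte markers summed to 653 and 578.5 CPM in Q331K/Q331K replicate 1 and Q331K/+ replicate 1, against 935 to 1586 CPM, with 1 of 10 over 5-fold lower. Aldoc alone set that direction, at 511 and 467 CPM against 791 to 1281 CPM, and the other 9 summed to 142 and 111 CPM, inside the range of the other 10 libraries (92.4 to 305.5 CPM). Oligodendrocyte markers, at 1630 and 1209 CPM, lay inside the range of the other 10, 951 to 2853 CPM. Microglial and oligodendrocyte precursor markers also lay inside their ranges. Endothelial markers summed to 20.49 CPM in Q331K/Q331K replicate 1, inside the range of 15.13 to 35.25 CPM. In Q331K/+ replicate 1 they summed to 10.48 CPM, below it. Without Ly6c1, the most abundant endothelial marker, the sums were 16.63 and 6.352 CPM, inside the range of 3.634 to 20.78 CPM. Pericyte and fibroblast markers summed to 75.8 and 42.2 CPM, against 2.88 to 43.0 CPM, with 7 of 9 at 0 in Q331K/Q331K replicate 1. Without Dcn, the most abundant of them, the sums were 3.90 and 5.13 CPM, inside the range of 1.84 to 17.25 CPM. The part of any of these cell types in the members' levels was not tested.

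The members met the 5-fold limit by choice, so their relatives are set beside all genes. Of 45 tested non-members in 8 gene families, 5 met it, against 5.53% of all genes, and of the 27 that averaged at least 5 CPM, 1 did, against 1.38% of all genes at that level. That gene was Slc30a3, the zinc transporter that fills synaptic vesicles, with 0.0145 and 0.0282 CPM (1 and 2 counts) in Q331K/Q331K replicate 1 and Q331K/+ replicate 1, against 1.97 to 20.01 CPM. Of the Kv1 genes besides Kcnab3, the scarce Kcna4 and Kcna5 met the limit with 0 counts in both libraries, and the others did not. Kcna1, a pore-forming subunit, had 1032 and 1012 CPM, against 954 to 1138 CPM, and Kcnab1, another beta subunit, had 423 and 486 CPM, against 251.5 to 367 CPM. Csk, the related kinase to Matk, had 63.6 and 54.6 CPM, against 27.9 to 36.6 CPM, above all other libraries where Matk was below them. The Wnt antagonist Dkk3, at 511 and 581 CPM against 167 to 364 CPM, was likewise above them while Sfrp1 was below. Frzb, another Wnt antagonist, had 7.3 and 7.76 CPM, against 15.69 to 30.48 CPM, below the other libraries but by less than Sfrp1. Of the 11 listed Wnt antagonists, 2 lay below all other libraries in both and 1 above them. Nrsn1, the other neurensin, had 124 and 119 CPM, against 206 to 303 CPM, below the other libraries but by less than Nrsn2.

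Whether the members differed by genotype was tested with edgeR's quasi-likelihood test over all 16338 genes, with Benjamini-Hochberg adjustment. With all 12 libraries, none of the 8 members passed an adjusted p of 0.05 in Q331K/Q331K against +/+, where 0.00612% of all genes did (1 gene, Spop), nor in Q331K/+ against +/+ or Q331K/Q331K against Q331K/+, where 0.0% of genes did. At an unadjusted p under 0.05 there were 787 genes (4.82%), 670 (4.1%) and 486 (2.97%) in these comparisons, none a member, and DESeq2 called 13, 9 and 3 genes, none a member. The log2 differences were -0.87 to -0.42 in Q331K/Q331K against +/+ and -0.66 to -0.33 in Q331K/+ against +/+. The choice of members used a low library in each mutant genotype, which by itself lowers the mutant means and widens the spread. The 12-library differences and p-values of the members are therefore a description only. Klhdc8a in Q331K/Q331K against +/+ differed by log2 -0.60 with an SE of 1.03 over 12 libraries, and by log2 -0.20 with an SE of 0.171 without the 2 low libraries.

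**Figure D3:**
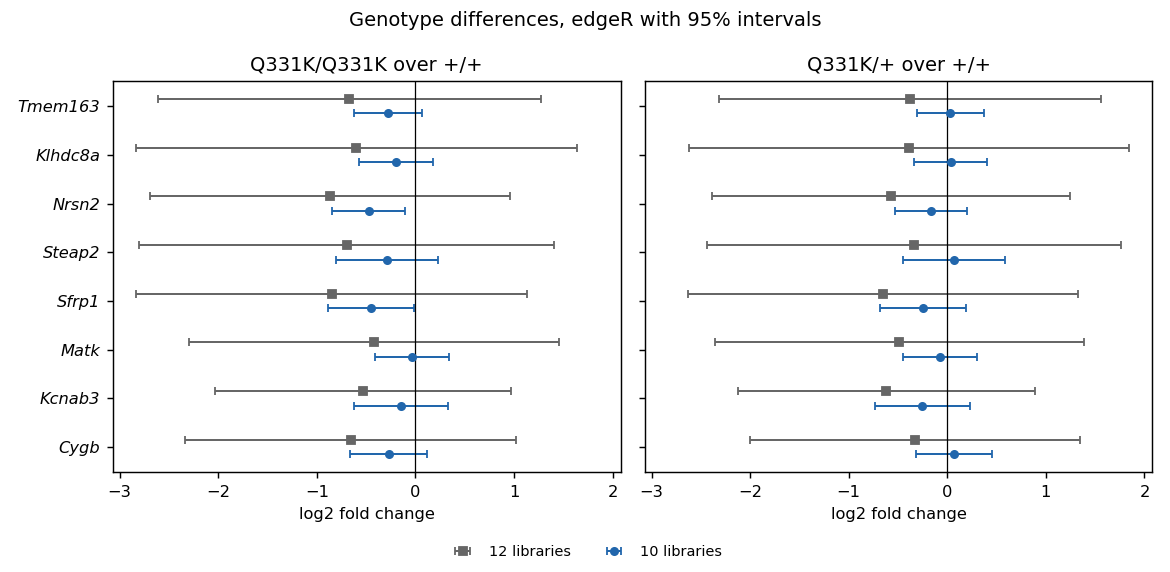
Log2 fold change of each member in Q331K/Q331K over +/+ (left) and Q331K/+ over +/+ (right), from all 12 libraries (squares) and from the 10 without the 2 low libraries (circles), with 95% intervals. With 10 libraries the intervals narrow, and in the left panel those of Nrsn2 and Sfrp1 lie below 0 before adjustment.

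Without the 2 low libraries, 3 libraries of each mutant genotype and 4 of +/+ remained and no gene of 16574 passed the adjusted threshold in any of the 3 comparisons. All 8 members had a log2 difference below 0 in Q331K/Q331K against +/+, and 2 of 8 had an unadjusted p under 0.05, against 5.36% of all genes. Nrsn2 differed by log2 -0.47 (SE 0.168, 95% interval -0.84 to -0.10, edgeR unadjusted p = 0.0168, adjusted p = 0.873). Sfrp1 differed by log2 -0.45 (SE 0.199, 95% interval -0.89 to -0.01, edgeR unadjusted p = 0.0449, adjusted p = 0.931). Slc17a6 itself differed by log2 -0.47 in that comparison (edgeR unadjusted p = 0.0138, adjusted p = 0.873) and Slc6a5 by log2 -0.25. In Q331K/+ against +/+ the members ran from log2 -0.25 to 0.07, 4 of 8 above 0 and none at an unadjusted p under 0.05, against 5.23% of all genes. In Q331K/Q331K against Q331K/+ they ran from log2 -0.36 to 0.11, none at an unadjusted p under 0.05, against 4.3% of all genes.

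The 10 other libraries also varied in Slc6a5 and Slc17a6, from 123 to 293 CPM and from 159.8 to 323 CPM. The 5-fold rule did not use the differences among these libraries. It was met by 903 of 16338 genes, and the 8 members were taken from them with earlier results of these data known. Whether that choice was free of these differences was not tested, so counts of members below are a description only. The slope of each gene's log2 level on the log2 level of each marker was fitted in edgeR over the 10 other libraries. A slope of 1 means that the gene doubles when the marker doubles. On Slc6a5 alone, all 8 members had slopes above 0 and 5 of 8 had an unadjusted p under 0.05, against 7.18% of all genes, but none of the 16573 genes passed the adjusted threshold. Steap2 had the steepest slope of the members (0.63, SE 0.142, edgeR unadjusted p = 0.000791, adjusted p = 0.385), followed by Kcnab3 at 0.50, Cygb at 0.42 and Nrsn2 at 0.38. On Slc17a6 alone, 7 of 8 slopes were above 0 and none had an unadjusted p under 0.05, against 3.81% of all genes. Tmem163 had a slope of 0.44 on Slc17a6 (edgeR unadjusted p = 0.0501, adjusted p = 1) and Kcnab3 -0.05.

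**Figure D4:**
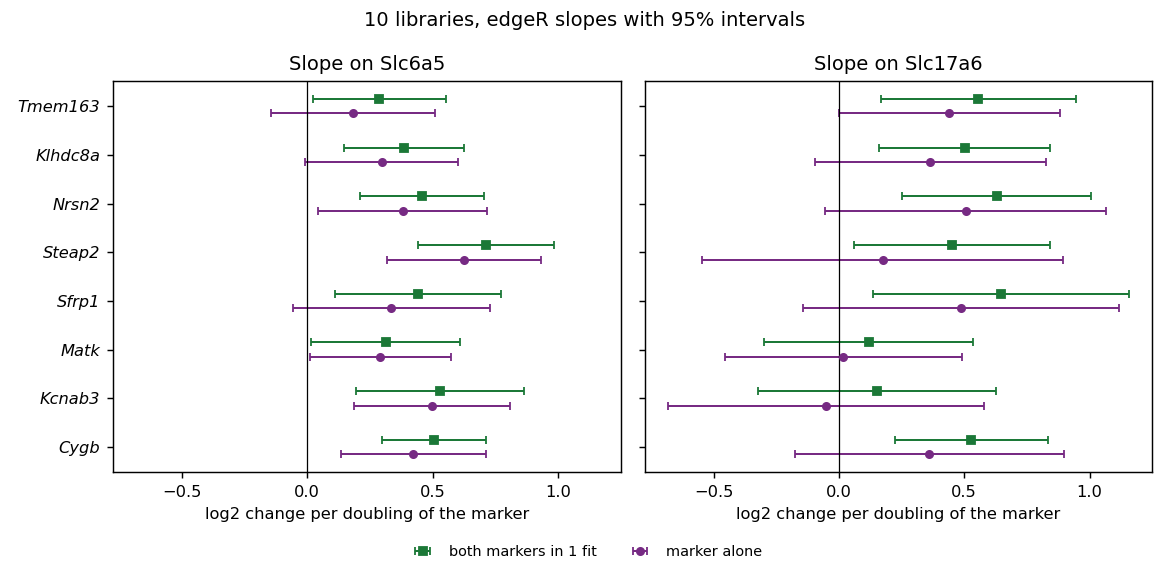
Slope of each member on Slc6a5 (left) and Slc17a6 (right) over 10 libraries, in log2 change per doubling of the marker, with 95% intervals. Squares are from a fit with both markers and circles from a fit with that marker alone. Squares in the left panel run from 0.29 for Tmem163 to 0.71 for Steap2.

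The slope of the markers on each other over the 10 libraries was below 0 and did not pass the test (Slc17a6 slope on Slc6a5 -0.15, edgeR unadjusted p = 0.44, adjusted p = 0.937). A fit with both markers together was added after the single fits had been seen. In it all 8 members had a slope on Slc6a5 above 0 with an unadjusted p under 0.05, against 9.34% of all genes. At an adjusted p of 0.05, 1 of 8 members passed, against 0.247% of all genes (41 of 16572). That member was Steap2 (slope 0.71, SE 0.123, edgeR adjusted p = 0.0471). Leaving out any of the 10 libraries ended this call, with adjusted p from 0.0511 without Q331K/+ replicate 4 to 0.322 without +/+ replicate 4. Cygb followed with a slope of 0.51 (SE 0.0945, edgeR adjusted p = 0.066). On Slc17a6, all 8 slopes were above 0 and 6 of 8 had an unadjusted p under 0.05, against 6.33% of all genes, and none was called. With genotype as a covariate in that fit, 2 of 8 had an edgeR unadjusted p under 0.05 on Slc17a6, as did 1809 of 16572 genes. On Slc6a5, 7 of 8 members did, as did 2201 of 16572 genes. All member slopes stayed above 0. On Slc17a6 alone, genotype as a covariate took the median slope of the members to 0.07, against 0.36 without it, with 6 of 8 above 0. In the fit with both markers and without genotype, Nrsn2 had a slope of 0.63 on Slc17a6, whereas Kcnab3 had 0.15.

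**Figure D5:**
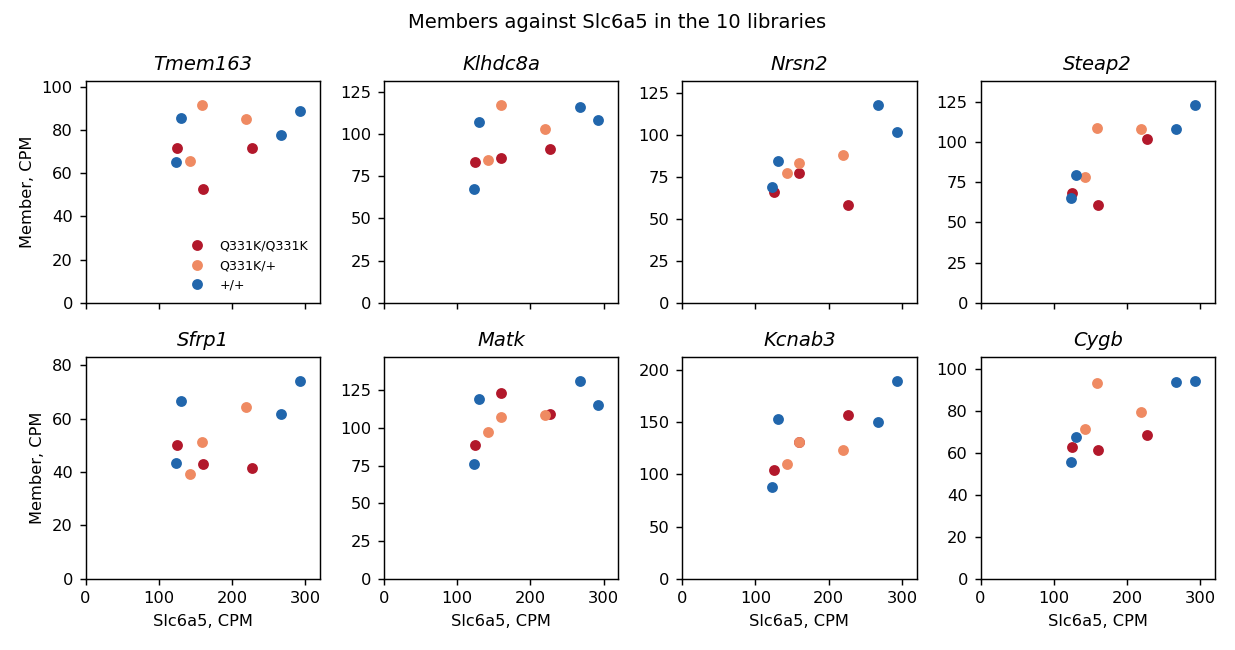
Level of each member against Slc6a5 in the 10 other libraries, both in CPM, each point a library coloured by genotype. The 2 points farthest right in each panel are +/+ replicates 3 and 4, at 267 and 293 CPM of Slc6a5.

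Because the choice of members set the 2 low libraries apart, correlations were computed within the other 10 only. They used log2 CPM, with permutation p-values adjusted over all genes. Among 16 relations of members with markers, none passed after adjustment, and 7.53% of all genes had a permutation p under 0.05 with Slc6a5 and 4.72% with Slc17a6. Steap2 had the highest r with Slc6a5 (Pearson r = 0.81, permutation p = 0.00817, adjusted p = 0.568; Spearman rho = 0.68, permutation p = 0.0354, adjusted p = 0.7), and r was 0.71 without +/+ replicates 3 and 4, the libraries farthest from the median of Slc6a5. Kcnab3 had r = 0.74 (permutation p = 0.0147, adjusted p = 0.596) and rho = 0.76 (permutation p = 0.0151, adjusted p = 0.658), with r = 0.55 without those libraries. Nrsn2 had r = 0.56 (permutation p = 0.0966, adjusted p = 0.712) and rho = 0.55 (permutation p = 0.104, adjusted p = 0.739), and its r was -0.05 without them, so that relation rests on those 2 libraries. Tmem163 had the highest r with Slc17a6 (r = 0.60, permutation p = 0.0664, adjusted p = 1.0; rho = 0.56, permutation p = 0.0973, adjusted p = 1.0), and r was 0.71 without Q331K/Q331K replicate 4 and +/+ replicate 2.

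The members varied together over the same 10 libraries, as a description. All 28 pairs had an r above 0, from 0.21 for Tmem163 with Matk to 0.89 for Steap2 with Cygb, with a median of 0.685, where the median r of members with all 9200 genes of at least 10 CPM was 0.03. The lowest of the 10 libraries was +/+ replicate 1 for 4 members and the highest was +/+ replicate 4 for 4 members. These points share their libraries, depth and scaling.

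The genes most like each member over the 10 libraries were taken as the 2 non-members of highest r per member. Of these 16, 13 kept at least 50% of their mean in both low libraries. How many of all genes did so was not counted, so this is a description only. Iscu, an iron-sulphur cluster scaffold with r = 0.94 to Tmem163, stood at 83.2% in Q331K/Q331K replicate 1 and 75.02% in Q331K/+ replicate 1. The exceptions were Gm14164, which overlaps Nrsn2, at 4.54% and 3.43%, Col11a1, a collagen chain most like Matk, at 20.7% and 8.20%, and Mmd2, also like Matk, at 175.6% and 34.9%.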

How the data were processed

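The deposited table holds whole-number read counts per gene for 12 libraries, all of which were used. Per the labels' protocols, RNA of laser-captured motor neurons was amplified by template switching and made into libraries by tagmentation. Per the submitters' processing notes, Trim Galore 0.4.3 and HISAT2 2.0.5 were used with GRCm38; the counting program, annotation and strand setting are not given in the sources used here. PCR copies and reads of overlapping genes are therefore not separated.

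Counts were scaled by TMM and tested with edgeR 4.0.16 (quasi-likelihood, filterByExpr, Benjamini-Hochberg adjustment over all genes, threshold 0.05), by genotype and, over 10 libraries, by slope on the log2 CPM of Slc6a5 or Slc17a6 (prior count 2). DESeq2 1.42.0 was an alternative, as were other filters and scaling, a replicate block, genotype as a covariate and each library left out. Correlations used 100000 permutations in scipy 1.17.1. Depth was 60886825 to 83504446 counts per library. Genes named besides the members are those of the family and cell type lists, the neighbours of the 5-fold limit, and the 2 most alike per member among genes averaging at least 10 CPM; family examples were chosen after their values were seen. A gene among the most alike is not reported here. The members and lists were chosen with earlier results of these data known.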

Additional observations from a re-analysis of the deposited data

Results flagged for a closer look

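In 4 of 30 groups of 4 libraries, formed by the 8 members and both markers in each genotype, a library stood apart from the other 3 by Dixon's test at the 95% level. Chance gives about 1 in 20 among independent groups, a rate that cannot be applied here: all 4 were the low libraries that the choice of members used, and the groups share the same 12 libraries. Klhdc8a was 3.05 CPM in Q331K/Q331K replicate 1, and Cygb was 4.57 CPM there. Nrsn2 was 2.80 CPM in Q331K/+ replicate 1, and Matk was 1.93 CPM there.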

How the results depend on the processing

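Each of the 8 members stayed over 5-fold lower in both low libraries under every alternative run on that rule. DESeq2 called 13 genes in Q331K/Q331K against +/+, 9 in Q331K/+ against +/+ and 3 (Fut4, Gfpt2 and Lrrc9) in Q331K/Q331K against Q331K/+. The call of Spop in Q331K/Q331K against +/+ was lost with no filter (0 genes), without the 2 low libraries (0) and without any 1 of the 12 libraries (0 to 0). Without the 2 low libraries the sign in Q331K/+ against +/+ turned for Tmem163 (0.031), Klhdc8a (0.033), Steap2 (0.066) and Cygb (0.068). Leaving out 1 library at a time gave ranges across 0 in that comparison for Tmem163 (-0.63 to 0.028), Klhdc8a (-0.66 to 0.029), Steap2 (-0.57 to 0.063) and Cygb (-0.58 to 0.065). In Q331K/Q331K against Q331K/+ it did so for Tmem163 (-0.70 to 0.11), Klhdc8a (-0.63 to 0.19), Nrsn2 (-0.70 to 0.10), Steap2 (-0.78 to 0.055), Sfrp1 (-0.60 to 0.21), Matk (-0.34 to 0.45), Kcnab3 (-0.27 to 0.47) and Cygb (-0.72 to 0.058). For the slope on Slc17a6 it did so for Steap2 (-0.068 to 0.60), Matk (-0.078 to 0.17) and Kcnab3 (-0.21 to 0.20), and with both markers for Matk (-0.036 to 0.38) and Kcnab3 (-0.10 to 0.32). The Steap2 slope on Slc17a6 was -0.40 with genotype as a covariate, and that of Kcnab3 was 0.15 with both markers. Genes called for the slope on Slc6a5 numbered 5 under the stricter filter, 41 with both markers and 0 to 4 with 1 library left out, the 4 without +/+ replicate 2. With both markers, the 41 became 71 with genotype as a covariate, 84 under the stricter filter and 0 to 45 with 1 library left out: 0 without +/+ replicate 4, 6 without +/+ replicate 3, 12 without Q331K/+ replicate 3, 16 without +/+ replicate 1 or Q331K/Q331K replicate 4, and 19 without Q331K/+ replicate 4. For Slc17a6 in that fit, 3 genes were called with genotype as a covariate, 8 under the stricter filter and 0 to 1 with 1 library left out. Cygb passed for Slc6a5 with both markers under the stricter filter (edgeR adjusted p = 0.022) and with genotype as a covariate (edgeR adjusted p = 0.0449), where Steap2 did not (edgeR adjusted p = 0.0636). The cause of these shifts was not tested.

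Same-numbered libraries of different genotypes are not stated to be paired. Their deviations correlated at -0.053 to 0.454, and the 3 of 12 pairs over 0.1 were all between replicates 1. The highest, 0.454, was between the 2 low libraries. A library correlated best with its own number in 9 of 24 cases. A replicate block left 1 gene called in Q331K/Q331K against +/+ and 0 in the other genotype comparisons, with members at log2 -1.76 to -1.06 in the first. Both low libraries share their block with +/+ replicate 1, so these member differences are a description only. With the block and both markers, 0 genes were called for Slc6a5, and the Kcnab3 slope on Slc17a6 alone was 0.076. Depth did not limit the members, which had at least 33 counts in every library, but Slc6a5 at 0 and Slc30a3 at 1 and 2 counts are at or below the floor of 3 counts.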
